A study of Mus musculus with 18 samples.

Results

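TC1 tumours harvested on day 8 after implantation were compared between cells carrying sgNAT10, a guide RNA against Nat10, and wild-type cells (WT). They make up 6 of the 18 RNA-seq libraries of the series, 3 per genotype, and were chosen by their labels alone. The other 12 libraries are cultured TC1 cells and cultured MCA205 cells, each WT and sgNAT10 with 3 libraries per genotype. In both tumour groups mice received 2000000 cells in PBS under the skin, and total RNA was taken from the whole tumour. The labels call TC1 a mouse fibrosarcoma line, although the name TC-1 is otherwise known for transformed lung epithelial cells. MCA205 is a fibrosarcoma line raised with methylcholanthrene. They do not give the strain, age or sex of the mice, the Cas9 construct, the number of guides, or whether sgNAT10 cells were a pool or 1 clone. Whether the 3 libraries per group came from 3 mice is not stated, so each p-value measures the spread between these libraries, which may be technical. In bulk tissue, fewer cells of a type and less RNA per cell cannot be told apart.

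The tumour libraries went against the TC1 label in one respect, which bears on every comparison below. A set of 20 genes was at 10 FPKM or more (fragments scaled to transcript length and library depth) in each library of cultured TC1 cells and under 0.5 FPKM in each library of cultured MCA205 cells. Of these, 9 are liver or intestine genes such as Mup3. The other 11 ranged from 10.2 to 362 FPKM over the TC1 cell libraries and did not exceed 2.85 FPKM in any tumour library, and in each tumour library each of them was more than 5 times below its level in TC1 cells. The tumour, TC1 cell and MCA205 cell values come from separate deposited tables, and FPKM set side by side across them were normalised apart. Dlk1, a membrane protein of the Notch ligand family, was at 258, 327 and 318 FPKM in WT TC1 cells and at 302, 340.1 and 362 FPKM in sgNAT10 TC1 cells. It was at 0.985, 0.838 and 1.13 FPKM in the WT tumours and at 0.229, 0.613 and 0.341 FPKM in the sgNAT10 tumours. In reverse, the predicted gene Gm19810 passed the same thresholds for MCA205 cells alone, and was at 124, 38.3 and 32.3 FPKM in the WT tumours and 38.2, 41.1 and 48.3 FPKM in the sgNAT10 tumours. Across 16657 genes, which are not independent replicates, the rank correlation of a WT tumour library with a WT cell library was 0.816 to 0.867 for TC1 cells and 0.880 to 0.921 for MCA205 cells. For sgNAT10 it was 0.791 to 0.809 for TC1 cells and 0.850 to 0.871 for MCA205 cells. The samples are therefore called WT and sgNAT10 tumours after their labels, and the tumours are set beside both lines. Which cell line grew in these tumours, and whether it was the same line in both groups, was not tested.

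**Figure D1:**
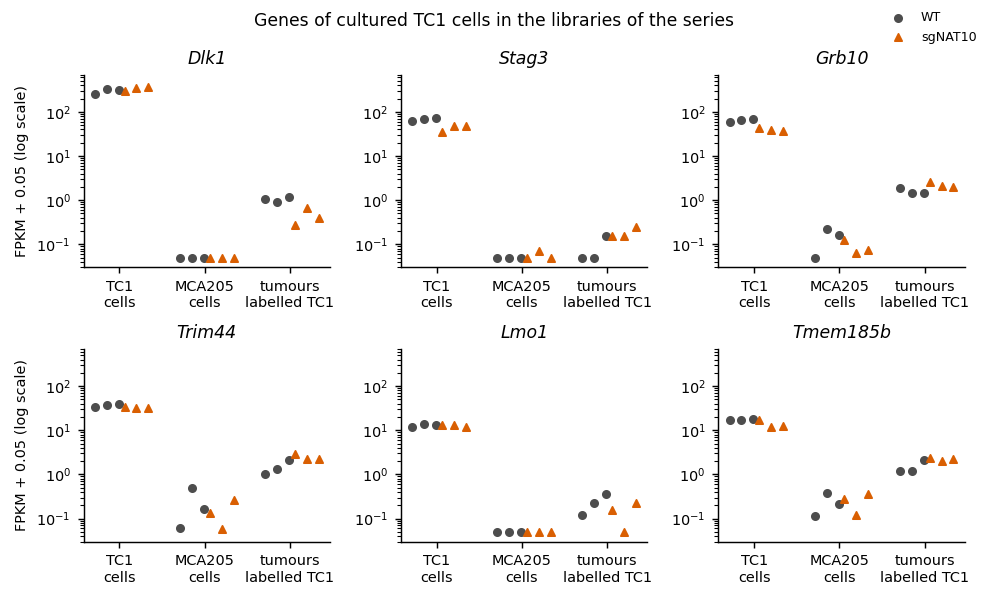
FPKM plus 0.05 on a log axis for 6 of the 11 genes, in each library of TC1 cells, MCA205 cells and tumours; circles are WT and triangles sgNAT10. The 6 tumour libraries lie far below the TC1 cells for each of the 6 genes.

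NAT10 is an acetyltransferase of the nucleolus that adds acetyl groups to cytidine in ribosomal, transfer and messenger RNA. The title of the series links its loss to MYC, CDK2, DNMT1 and type I interferon. Type I interferons signal through a receptor on most cells to switch on antiviral genes such as the Ifit and Oas families. Interferon gamma, a product of T and NK cells, acts through its own receptor. Its targets include guanylate-binding proteins, immunity-related GTPases and the chemokines Cxcl9, Cxcl10 and Cxcl11. The target genes overlap, so the gene lists named after the interferons do not tell them apart. Both interferons act on tumour cells as well as on the immune, vascular and stromal cells of a tumour.

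The promoters of 4 interferon-induced genes described below carry a motif that was more frequent in the interferon lists than over all genes. The sequences are the 250 bases before the RefSeq start of each gene (GRCm38.p6), read 5′ to 3′ on the gene's strand, and no annotated exon overlaps them. Capitals mark each match to GAAA, any 2 bases and GAAA again, the core of an interferon-stimulated response element, or to its reverse complement, TTTC, any 2 bases and TTTC. Ifit3 is on the plus strand at chr19:34583279-34583528, Rsad2 on the minus strand at chr12:26456453-26456702, Igtp on the plus strand at chr11:58199306-58199555 and Tgtp2 on the minus strand at chr11:49064213-49064462.
Ifit3: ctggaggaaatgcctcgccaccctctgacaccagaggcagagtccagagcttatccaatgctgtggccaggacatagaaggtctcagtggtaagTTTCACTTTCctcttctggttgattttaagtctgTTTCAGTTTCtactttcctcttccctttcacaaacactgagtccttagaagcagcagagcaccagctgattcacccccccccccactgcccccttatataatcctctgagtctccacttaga
Rsad2: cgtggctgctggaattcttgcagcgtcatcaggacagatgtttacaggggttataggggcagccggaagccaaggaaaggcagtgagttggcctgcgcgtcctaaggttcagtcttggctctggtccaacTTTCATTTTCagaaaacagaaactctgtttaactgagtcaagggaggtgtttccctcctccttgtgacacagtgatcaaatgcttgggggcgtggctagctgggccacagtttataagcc
Igtp: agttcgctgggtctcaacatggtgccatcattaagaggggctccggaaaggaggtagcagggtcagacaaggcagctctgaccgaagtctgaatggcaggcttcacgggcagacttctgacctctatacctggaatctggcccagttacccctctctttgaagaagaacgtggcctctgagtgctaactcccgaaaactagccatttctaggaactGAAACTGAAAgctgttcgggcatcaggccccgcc
Tgtp2: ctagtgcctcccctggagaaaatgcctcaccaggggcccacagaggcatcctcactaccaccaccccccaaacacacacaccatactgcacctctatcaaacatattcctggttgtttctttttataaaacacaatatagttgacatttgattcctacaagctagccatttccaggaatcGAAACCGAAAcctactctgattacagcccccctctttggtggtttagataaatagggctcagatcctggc
In windows of 300 bases (250 before and 50 after the start), the motif on either strand was present in 15 of the 29 type I interferon genes with a promoter entry (51.7%) and in 11 of 15 interferon gamma genes (73.3%). It was present in 3.99% of all 27025 genes with an entry. Among genes that rose at least 2-fold in the sgNAT10 tumours it was present in 70 of 620 (11.3%), and among those that fell at least 2-fold in 8 of 374 (2.14%). A match describes the letters of the window and not a bound site.

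Nat10 itself (ENSMUSG00000027185, chr2:103721256-103761270) was at 14.8, 16.2 and 15.3 FPKM in the WT tumours and at 12.3, 16.1 and 16.3 FPKM in the sgNAT10 tumours (log2 change -0.22 ± 0.15 (SE), adjusted p = 0.336). The groups overlapped, but a guide need not lower the transcript of its target, so the level of Nat10 does not check the labels. Over the 6 tumour libraries the summed counts ran from 56504650 to 78501790, with WT library 1 the deepest. The 10 most abundant genes took 5.13 to 6.10% of the counts, and 12681 to 13871 genes reached 1 FPKM. Of 30631 genes, 19244 were tested with edgeR's quasi-likelihood test, and a gene is called when its Benjamini-Hochberg adjusted p is under 0.05. Of these, 1473 (7.65%) rose and 1870 (9.72%) fell in the sgNAT10 tumours, and 964 rose and 548 fell at least 2-fold. The 3 WT and the 3 sgNAT10 values did not overlap for 40.4% of the genes tested. The median log2 change over all genes tested was 0.02, where 1 is a 2-fold change. Scaling by library size alone moved that median to 0.13 and the calls to 1505 higher and 1223 lower. Many calls needed all 6 libraries. Without WT library 2 or any 1 of the sgNAT10 libraries, between 548 and 1048 of the 3343 calls were made again, against 2690 without WT library 1 and 3036 without WT library 3. Genes and lists whose calls held with any library left out are named as such below. Each count for a gene list is to be read beside the shares of all genes, 7.65% higher and 9.72% lower.

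Genes induced by type I interferon rose together in the sgNAT10 tumours. Of 39 tested members of the list, 33 rose and none fell, against 7.65% and 9.72% of all genes, and the median log2 change was 1.14. The summed level of the list was 2937, 2952 and 4403 FPKM in the WT tumours and 6787, 6965 and 6731 FPKM in the sgNAT10 tumours. Each sgNAT10 tumour lay above each WT tumour, and WT library 3 lay above the other 2 WT libraries. Ifit3, which binds viral RNA together with Ifit1, was at 99.9, 121 and 195 FPKM in WT and 426, 456 and 376 FPKM in sgNAT10 tumours (log2 change 1.51 ± 0.21 (SE), adjusted p = 0.00732). Rsad2, the antiviral enzyme viperin, was at 18.4, 19.3 and 27.1 FPKM in WT and 52.9, 52.7 and 50.01 FPKM in sgNAT10 tumours (log2 change 1.16 ± 0.13 (SE), adjusted p = 0.00417). The groups of both genes were far apart, and the 3 sgNAT10 values of Rsad2 lay within 3 FPKM of each other. Xaf1, an inhibitor of XIAP, was at 35.9, 36.7 and 45.9 FPKM in WT and 100.0, 97.3 and 98.5 FPKM in sgNAT10 tumours (log2 change 1.23 ± 0.14 (SE), adjusted p = 0.00419). Usp18, which removes ISG15 from proteins and damps the interferon receptor, rose as well (log2 change 1.19, adjusted p = 0.00742), as did Ifit3b (log2 change 1.70, adjusted p = 0.00763), whose reads may be shared with its near-identical neighbour Ifit3. These 5 calls held with any library left out, with adjusted p-values of at most 0.0451. The 6 members that were not called were Irf9, Ifih1, Bst2, Eif2ak2, Ifitm3 and Lgals3bp, with log2 changes from 0.41 to 0.80. The count of 33 was 32 without WT library 1 and 37 without WT library 3, but 9 without WT library 2 and 12, 5 and 14 without sgNAT10 libraries 1, 2 and 3.

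The list of interferon gamma-induced genes rose to a similar extent. Of 25 members, 21 rose and none fell, with a median log2 change of 1.45. Its summed level was 1277, 2016 and 2781 FPKM in the WT tumours and 7401, 5768 and 5261 FPKM in the sgNAT10 tumours. Among the WT tumours library 1 was the lowest and library 3 the highest, and among the sgNAT10 tumours library 1 was the highest. Gbp2, a guanylate-binding protein that attacks the vacuoles of intracellular pathogens, was at 228, 404 and 446 FPKM in WT and 1630.2, 1136 and 1051 FPKM in sgNAT10 tumours (log2 change 1.74 ± 0.26 (SE), adjusted p = 0.00859). Igtp, an immunity-related GTPase, was at 102, 155 and 208 FPKM in WT and 582, 457 and 389 FPKM in sgNAT10 tumours (log2 change 1.53 ± 0.24 (SE), adjusted p = 0.00897). In both genes the lowest sgNAT10 value lay above the highest WT value, and WT library 1 was the lowest of the 6. Tgtp2, another GTPase of that family, was at 50.6, 89.1 and 125 FPKM in WT and 495, 389.6 and 344 FPKM in sgNAT10 tumours (log2 change 2.13 ± 0.28 (SE), adjusted p = 0.00633), and its near copy Tgtp1, with which it may share reads, rose by a like amount (log2 change 2.20, adjusted p = 0.00523). Cd274, the checkpoint ligand PD-L1, was at 10.3, 15.1 and 16.4 FPKM in WT and 50.3, 34.6 and 33.8 FPKM in sgNAT10 tumours (log2 change 1.41 ± 0.19 (SE), adjusted p = 0.00672). These 5 calls also held with any library left out. Ciita, Socs1, Serpina3g and Nos2 were not called, with log2 changes from 0.55 to 1.45. The count of 21 was 20 without WT library 1 and 23 without WT library 3. It was 5 without WT library 2 and 7, 5 and 14 without sgNAT10 libraries 1, 2 and 3.

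Interferon gamma itself was low and higher in the sgNAT10 tumours. Ifng was at 2.15, 2.31 and 3.23 FPKM in the WT tumours and at 8.72, 5.39 and 4.86 FPKM in the sgNAT10 tumours (log2 change 1.20 ± 0.28 (SE), adjusted p = 0.0297), and the groups did not overlap. The call was lost, at adjusted p-values up to 0.0953, when WT library 1, WT library 2 or any sgNAT10 library was left out. In cultured cells Ifng was close to 0, with means of 0.0359 and 0.0424 FPKM in WT and sgNAT10 TC1 cells and 0.0160 FPKM in both groups of MCA205 cells. The interferon gamma list nonetheless rose in sgNAT10 MCA205 cells, with 20 of 25 members called higher and a median log2 change of 2.57. Which interferon acted in the tumours was not tested.

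MHC class I presentation changed less than the interferon lists. Of 22 members 6 rose and none fell, with a median log2 change of 0.43. Nlrc5, the transactivator of class I genes, was at 14.5, 22.8 and 25.3 FPKM in WT and 45.8, 45.5 and 41.98 FPKM in sgNAT10 tumours (log2 change 1.01 ± 0.20 (SE), adjusted p = 0.0194). Psmb9, a subunit of the immunoproteasome, was at 54.5, 45.9 and 63.8 FPKM in WT and 101, 85.8 and 87.6 FPKM in sgNAT10 tumours (log2 change 0.67 ± 0.14 (SE), adjusted p = 0.0212). H2-Q6, a nonclassical class I gene with near-identical relatives that make its counts uncertain, rose too (log2 change 1.02, adjusted p = 0.0318), as did the peptide editor Tapbpl (log2 change 0.74, adjusted p = 0.0267) and the peptidase Erap1 (log2 change 0.74, adjusted p = 0.035). The classical genes, named here after their values were seen, were not called. H2-K1 was at 1955, 1709.9 and 2738 FPKM in WT and 1801, 1781 and 1925 FPKM in sgNAT10 tumours (adjusted p = 0.282), and H2-D1 had a log2 change of 0.05 (adjusted p = 0.871). The light chain gene B2m was at 3124, 3098 and 4084 FPKM in WT and 5239.5, 5610.3 and 6027 FPKM in sgNAT10 tumours (log2 change 0.61, adjusted p = 0.0546). The count of 6 was 5, 0 and 13 without WT library 1, 2 or 3 and 0, 0 and 0 without sgNAT10 library 1, 2 or 3, and the 5 calls named here were lost without single libraries among WT 1 and 2 and sgNAT10 1, 2 and 3 (adjusted p up to 0.118).

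Chemokines, cytokines and complement followed in part. Of 26 chemokine genes 5 rose and none fell. Cxcl9, which draws T cells through CXCR3, was at 32.6, 50.6 and 82.1 FPKM in WT and 213, 116 and 118 FPKM in sgNAT10 tumours (log2 change 1.36 ± 0.34 (SE), adjusted p = 0.0349). Cxcl10 was at 297, 381 and 599 FPKM in WT and 1017, 869 and 859 FPKM in sgNAT10 tumours (log2 change 1.04 ± 0.22 (SE), adjusted p = 0.0214). For both genes WT library 3 was the highest WT value and still lay below each sgNAT10 value. Cxcl11 (log2 change 1.23, adjusted p = 0.0247), the eosinophil attractant Ccl11 (log2 change 1.65, adjusted p = 0.0128) and the neutrophil attractant Cxcl1 (log2 change 0.94, adjusted p = 0.0488) rose as well. Ccl5 was at 23.7, 19.3 and 30.5 FPKM in WT and 33.1, 32.97 and 38.9 FPKM in sgNAT10 tumours (adjusted p = 0.169), without overlap but not called. Each of the 5 calls was lost without 2 or more single libraries among WT 1, 2 and 3 and sgNAT10 1, 2 and 3 (adjusted p up to 0.155). The count of 5 was 7, 1 and 5 without WT library 1, 2 or 3 and 0, 1 and 0 without sgNAT10 library 1, 2 or 3.

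Of 22 inflammatory cytokine genes 5 rose and 1 fell. Il1rn, the natural antagonist of interleukin 1, was at 14.8, 13.4 and 13.5 FPKM in WT and 38.8, 28.3 and 33.3 FPKM in sgNAT10 tumours (log2 change 1.12 ± 0.16 (SE), adjusted p = 0.00742), a call that held with any library left out. Il18 (log2 change 0.84, adjusted p = 0.0247), Lif (log2 change 0.78, adjusted p = 0.0229), Lcn2 (log2 change 1.58, adjusted p = 0.0457) and Il1b (log2 change 0.99, adjusted p = 0.0471) rose, and Tgfb1, a suppressor of T cell responses, fell (log2 change -0.56, adjusted p = 0.041). Each of those 5 calls was lost without single libraries among WT 1, 2 and 3 and sgNAT10 1, 2 and 3 (adjusted p up to 0.156). The count of 5 that rose was 6, 2 and 6 without WT library 1, 2 or 3 and 2, 1 and 1 without sgNAT10 library 1, 2 or 3. Of 15 complement genes 5 rose and none fell. Serping1, the inhibitor of the C1 proteases, was at 11.5, 14.9 and 18.3 FPKM in WT and 59.7, 45.4 and 51.9 FPKM in sgNAT10 tumours (log2 change 1.71 ± 0.15 (SE), adjusted p = 0.00243), and C2 was at 1.40, 1.67 and 1.76 FPKM in WT and 5.78, 4.36 and 4.84 FPKM in sgNAT10 tumours (log2 change 1.74 ± 0.21 (SE), adjusted p = 0.0053). Both calls held with any library left out. Hc, the gene of complement C5, rose (log2 change 2.48, adjusted p = 0.0107) beside a rise in liver genes that is given below, and C1s1 (log2 change 1.03, adjusted p = 0.0394) and C1ra (log2 change 1.05, adjusted p = 0.0425) rose with WT library 3 the highest WT value. Hc was lost without sgNAT10 library 2 (adjusted p up to 0.053), and C1s1 and C1ra without single libraries among WT 1 and 2 and sgNAT10 1, 2 and 3 (adjusted p up to 0.135). The count of 5 was 4, 3 and 11 without WT library 1, 2 or 3 and 3, 2 and 3 without sgNAT10 library 1, 2 or 3.

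**Figure D2:**
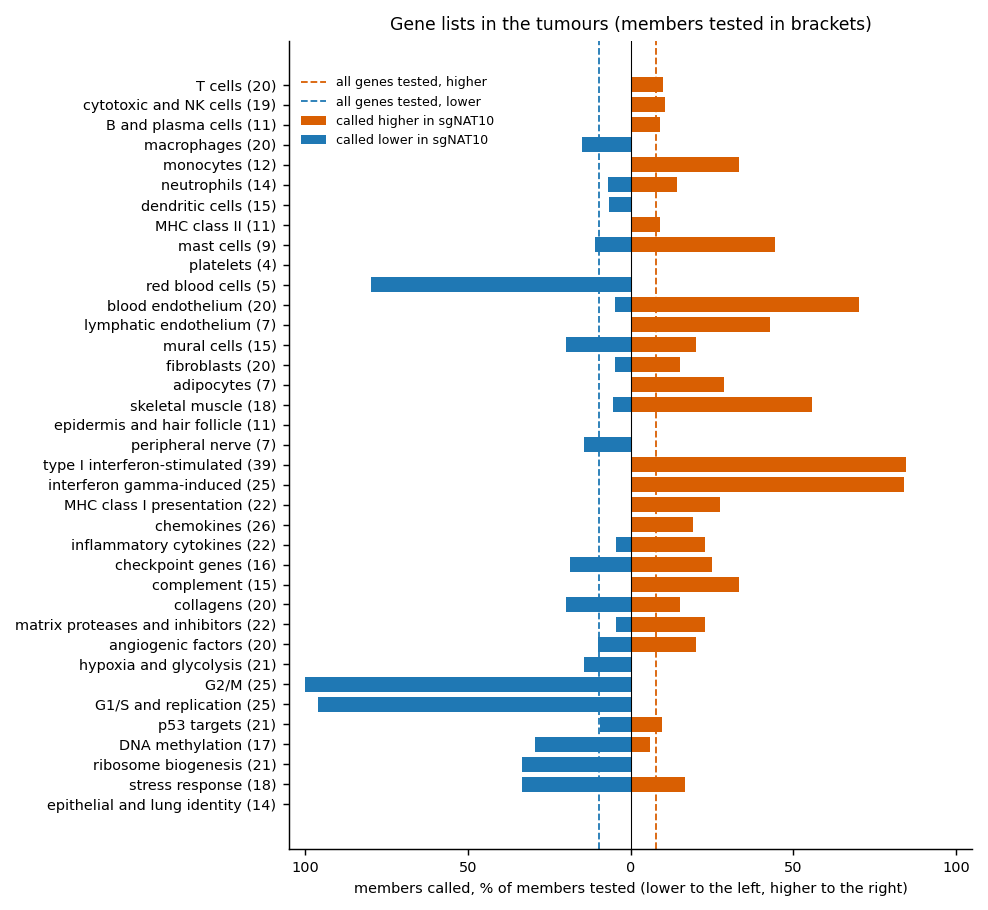
Share of tested members of each gene list called higher (right) or lower (left) in sgNAT10 tumours, with the number tested in brackets; dashed lines mark the shares over all genes tested, 7.65% higher and 9.72% lower. The interferon, endothelial and muscle lists reach far to the right, and the cell cycle lists to the left.

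Checkpoint genes moved in both directions. Of 16 tested, 4 rose and 3 fell. Cd274 is given above. Ctla4, an inhibitory receptor of T cells, was at 1.32, 0.749 and 1.54 FPKM in WT and 2.62, 3.90 and 3.20 FPKM in sgNAT10 tumours (log2 change 1.31 ± 0.33 (SE), adjusted p = 0.0357), and the costimulatory ligand Cd86 was at 4.64, 4.95 and 7.43 FPKM in WT and 12.4, 10.2 and 8.89 FPKM in sgNAT10 tumours (log2 change 0.77 ± 0.19 (SE), adjusted p = 0.035). Neither pair of groups overlapped. Ctla4 lost its call without WT library 2 or sgNAT10 library 1, 2 or 3 (adjusted p up to 0.135) and Cd86 without WT library 1 or 2 or sgNAT10 library 1, 2 or 3 (adjusted p up to 0.118). Tigit, known as an inhibitory receptor of T and NK cells, fell from 45.8, 42.4 and 21.2 FPKM in WT to 9.70, 10.8 and 9.68 FPKM in sgNAT10 tumours (log2 change -2.00 ± 0.33 (SE), adjusted p = 0.0107). In cultured MCA205 cells, which hold no T cells, Tigit had means of 58.1 FPKM in WT and 32.9 FPKM in sgNAT10, and in TC1 cells 11.9 and 8.18 FPKM. Cd276, the ligand B7-H3, fell from 9.38, 9.39 and 9.79 FPKM in WT to 4.99, 4.55 and 4.29 FPKM in sgNAT10 tumours (log2 change -1.20 ± 0.13 (SE), adjusted p = 0.00407), which held with any library left out. Tigit was lost without sgNAT10 library 1, 2 or 3 (adjusted p up to 0.0552). The count of 4 that rose was 3, 1 and 7 without WT library 1, 2 or 3 and 1, 1 and 1 without sgNAT10 library 1, 2 or 3, and that of 3 that fell 2, 2 and 3, and 1, 1 and 1 in the same order.

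Markers of T cells were low in all 6 tumours and few were called. Of 20 tested, 2 rose and none fell, close to the shares over all genes, and the median log2 change was 0.66. The summed level was 25.1, 19.7 and 46.7 FPKM in WT and 37.8, 59.02 and 41.7 FPKM in sgNAT10 tumours, and the groups overlapped. Cd3e, a chain of the T cell receptor complex, was at 1.37, 0.975 and 2.55 FPKM in WT and 1.39, 1.70 and 1.75 FPKM in sgNAT10 tumours (log2 change -0.09, adjusted p = 0.881). Cd8a was at 0.795, 0.973 and 2.19 FPKM in WT and 1.45, 3.72 and 1.496 FPKM in sgNAT10 tumours (log2 change 0.61, adjusted p = 0.415). For both genes WT library 3 lay within the range of the sgNAT10 tumours or above it. Icos, a costimulatory receptor, was at 0.755, 0.813 and 1.94 FPKM in WT and 2.61, 3.9997 and 2.73 FPKM in sgNAT10 tumours (log2 change 1.32 ± 0.36 (SE), adjusted p = 0.0453). Its call was lost without WT library 1 or 2 or sgNAT10 library 1, 2 or 3 (adjusted p up to 0.16), and the count of 2 was 0, 0 and 4 without WT library 1, 2 or 3 and 0, 0 and 0 without sgNAT10 library 1, 2 or 3. The regulatory T cell factor Foxp3 had a log2 change of 1.36 and was not called (adjusted p = 0.0771).

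Of 19 genes of cytotoxic and NK cells, 2 rose, Ifng and the receptor Klrk1, and none fell. Klrk1, the activating receptor NKG2D, was at 2.26, 3.94 and 6.99 FPKM in WT and 13.6, 14.8 and 10.7 FPKM in sgNAT10 tumours (log2 change 1.47 ± 0.40 (SE), adjusted p = 0.046). Gzmb, granzyme B, was at 8.94, 17.1 and 37.6 FPKM in WT and 51.3, 67.3 and 57.5 FPKM in sgNAT10 tumours (log2 change 1.41 ± 0.41 (SE), adjusted p = 0.0541), with no overlap but just short of the threshold. Without WT library 3, in which the level was the highest of the WT tumours, 9 of the 19 genes rose, Gzmb and Prf1 among them (adjusted p = 0.00531 and 0.0101, against 0.159 and 0.418 as the highest values with another library left out). Without WT library 1, 1 of 19 was called, and without WT library 2 or any sgNAT10 library 0. Klrk1 was lost without WT library 2 or sgNAT10 library 1, 2 or 3 (adjusted p up to 0.145). With all libraries, the pore-forming gene Prf1 was at 1.81, 1.63 and 5.21 FPKM in WT and 5.48, 6.16 and 4.26 FPKM in sgNAT10 tumours (log2 change 0.79, adjusted p = 0.21). Ncr1, the NK cell receptor NKp46, was at 0.298, 0.382 and 1.76 FPKM in WT and 1.47, 1.46 and 0.990 FPKM in sgNAT10 tumours (log2 change 0.62, adjusted p = 0.513), and its groups overlapped. Among B and plasma cell genes 1 of 11 rose, the B lineage factor Pax5 (log2 change 1.35, adjusted p = 0.0377), at under 0.5 FPKM in each library and lost without any 1 library (adjusted p from 0.055 to 0.13). Cd79a was at 2.33, 1.98 and 2.94 FPKM in WT and 3.39, 2.13 and 1.92 FPKM in sgNAT10 tumours (log2 change -0.07, adjusted p = 0.882). The plasma cell genes Igkc (2.09, 22.96 and 23.1 FPKM in WT and 4.997, 15.7 and 2.24 FPKM in sgNAT10 tumours) and Jchain, not called, were also found in cultured TC1 cells, where Igkc had means of 182 FPKM in WT and 133 FPKM in sgNAT10.

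Macrophage genes were abundant in both groups. Of 20 tested, 3 fell and none rose. The median log2 change was -0.13, and it was above 0 under 2 of the other settings. Lyz2, lysozyme, was at 511, 571 and 554 FPKM in WT and 369, 328 and 297 FPKM in sgNAT10 tumours (log2 change -0.83 ± 0.13 (SE), adjusted p = 0.0101). Gpnmb, a glycoprotein of lipid-laden macrophages, was at 23.6, 26.8 and 14.5 FPKM in WT and 6.90, 6.66 and 6.48 FPKM in sgNAT10 tumours (log2 change -1.83 ± 0.25 (SE), adjusted p = 0.0069), but is no macrophage-only gene here, since cultured WT MCA205 cells had a mean of 54.1 FPKM and WT TC1 cells 29.8 FPKM. Mrc1, the mannose receptor, was at 33.6, 23.8 and 26.3 FPKM in WT and 18.1, 12.9 and 18.6 FPKM in sgNAT10 tumours (log2 change -0.87 ± 0.23 (SE), adjusted p = 0.0423). The defining gene Adgre1, which encodes F4/80, was at 13.7, 15.8 and 28.7 FPKM in WT and 20.5, 22.1 and 18.2 FPKM in sgNAT10 tumours (log2 change -0.03, adjusted p = 0.93), and Csf1r was at 16.9, 23.1 and 42.2 FPKM in WT and 38.8, 31.5 and 25.8 FPKM in sgNAT10 tumours (log2 change 0.15, adjusted p = 0.74). WT library 3 was the highest of the 6 for both. Gpnmb kept its call with any library left out, Lyz2 lost it without sgNAT10 library 2 or 3 (adjusted p up to 0.0708), and Mrc1 without WT library 1 or 2 or sgNAT10 library 1, 2 or 3 (adjusted p up to 0.141). The count of 3 was 2, 2 and 3 without WT library 1, 2 or 3 and 2, 1 and 1 without sgNAT10 library 1, 2 or 3.

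Some monocyte genes rose in the sgNAT10 tumours. Of 12 tested, 4 rose and none fell, with a median log2 change of 0.74. Ly6c2, the surface marker of inflammatory monocytes, was at 24.99, 38.1 and 53.4 FPKM in WT and 139, 126 and 99.9 FPKM in sgNAT10 tumours (log2 change 1.56 ± 0.23 (SE), adjusted p = 0.00803). Plac8 was at 40.4, 46.01 and 60.7 FPKM in WT and 215, 171 and 160.2 FPKM in sgNAT10 tumours (log2 change 1.79 ± 0.15 (SE), adjusted p = 0.00227). These 2 calls held with any library left out, and both groups were well apart. Ly6c2 is also an interferon-responsive gene, and the interferon lists moved in the same direction. Hp, haptoglobin, rose (log2 change 2.36, adjusted p = 0.0341) beside liver RNA, whose values are given below, and was lost without WT library 2 or sgNAT10 library 1, 2 or 3 (adjusted p up to 0.114). The count of 4 was 4, 2 and 5 without WT library 1, 2 or 3 and 2, 2 and 2 without sgNAT10 library 1, 2 or 3.

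Among the other myeloid lists, few genes were called. Of 14 neutrophil genes 2 rose, G0s2 (log2 change 1.89, adjusted p = 0.0299) and Il1b, and the granulocyte marker Ly6g fell from 1.06, 1.37 and 1.42 FPKM in WT to 0.354, 0.618 and 0.347 FPKM in sgNAT10 tumours (log2 change -1.62 ± 0.39 (SE), adjusted p = 0.0322). S100a8 varied within the WT tumours, at 19.9, 0.785 and 5.01 FPKM, and was at 10.8, 3.14 and 6.58 FPKM in sgNAT10 tumours (log2 change -0.54, adjusted p = 0.733). The granule gene Ngp was at 29.5, 0 and 3.12 FPKM in WT and 0.577, 0 and 0.121 FPKM in sgNAT10 tumours, highest in WT library 1. The 15 dendritic cell genes had a median log2 change of 0.81, with 13 above 0, and a summed level of 844, 618 and 919.9 FPKM in WT and 1152, 1211 and 1339 FPKM in sgNAT10 tumours, without overlap. None of them was called higher and 1 fell, the actin bundler Fscn1 (log2 change -0.68, adjusted p = 0.0313). Cultured cells of both lines also held Fscn1, at means of 74.5 FPKM (WT TC1) and 121 FPKM (WT MCA205). The summed level of the dendritic cell list was higher in sgNAT10 than in WT cultures too, although these hold no dendritic cells. It was 423, 407 and 422 FPKM in WT and 935, 948 and 900 FPKM in sgNAT10 MCA205 cells. In TC1 cells it was 294, 143 and 160 FPKM in WT and 390, 1023.9 and 1063 FPKM in sgNAT10. The dendritic cell list includes Bst2, which is counted in the type I interferon list too. Whether the higher level in the tumours came from dendritic cells was not tested. Itgax, which encodes CD11c, was at 2.13, 3.87 and 8.09 FPKM in WT and 11.5, 13.1 and 11.04 FPKM in sgNAT10 tumours (log2 change 1.28, adjusted p = 0.0533). Of 11 MHC class II genes 1 rose, H2-Oa (log2 change 1.47, adjusted p = 0.0258), and H2-Aa was at 74.3, 60.5 and 159 FPKM in WT and 206, 162 and 125 FPKM in sgNAT10 tumours (log2 change 0.66, adjusted p = 0.205). Its WT library 3 lay above 1 of the 3 sgNAT10 libraries. G0s2, Il1b, Ly6g, Fscn1 and H2-Oa were each lost without several single libraries among WT 2 and 3 and sgNAT10 1, 2 and 3 (adjusted p up to 0.141). The count of neutrophil genes that rose was 2, 0 and 1 without WT library 1, 2 or 3 and 0, 0 and 0 without sgNAT10 library 1, 2 or 3, that of dendritic cell genes 1, 0 and 3, and 0, 0 and 0 and that of class II genes 1, 0 and 4, and 0, 0 and 0 in the same order.

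Of 9 mast cell genes tested, 4 rose, at low levels, and 1 fell. Hdc, the enzyme that makes histamine, was at 1.32, 0.923 and 1.42 FPKM in WT and 6.08, 3.29 and 3.71 FPKM in sgNAT10 tumours (log2 change 1.79 ± 0.32 (SE), adjusted p = 0.0143). The proteases Mcpt4 (0.701, 0.280 and 0.656 FPKM in WT and 3.46, 1.24 and 5.08 FPKM in sgNAT10 tumours) and Tpsb2 (log2 change 2.16, adjusted p = 0.0358) and the stem cell factor receptor Kit (log2 change 1.05, adjusted p = 0.018) rose as well, whereas the transcription factor Gata2, which the cultured lines also held at means of 4.38 to 13.8 FPKM, fell (log2 change -1.16, adjusted p = 0.0101). The count of 4 was 4, 0 and 2 without WT library 1, 2 or 3 and 0, 2 and 2 without sgNAT10 library 1, 2 or 3, with adjusted p up to 0.118, and Gata2 was lost without sgNAT10 library 2 or 3 (adjusted p up to 0.0576). Haemoglobin genes fell, and 4 of the 5 tested red blood cell genes were called. Hbb-bs was at 166, 131 and 64.6 FPKM in WT and 30.6, 32.7 and 45.4 FPKM in sgNAT10 tumours (log2 change -1.89 ± 0.39 (SE), adjusted p = 0.0211), and WT library 1 held the most. The count of 4 was 3, 0 and 5 without WT library 1, 2 or 3 and 0, 0 and 0 without sgNAT10 library 1, 2 or 3, with adjusted p up to 0.148. The near-identical alpha and beta globin genes may share reads. None of 4 platelet genes was called, and Pf4 was at 123, 38.6 and 21.7 FPKM in WT and 29.2, 23.8 and 28.02 FPKM in sgNAT10 tumours (adjusted p = 0.169).

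Genes of 3 tissues that a tumour need not hold differed between libraries, and the liver genes between the 2 groups as well. They stand beside the results they touch. The summed level of 16 liver genes was 1.70, 68.9 and 263 FPKM in the WT tumours and 608, 687 and 638 FPKM in the sgNAT10 tumours, and cultured TC1 cells held 1385, 1676 and 843 FPKM in WT. That of 15 intestine genes was 15.6, 112 and 105 FPKM in the WT and 54.8, 54.6 and 30.4 FPKM in the sgNAT10 tumours, and that of 13 epidermis and hair follicle genes 5.61, 15.2 and 11.4 FPKM in the WT and 31.3, 4.75 and 292 FPKM in the sgNAT10 tumours. WT library 1 was lowest for liver and intestine, and sgNAT10 library 3 stood apart for epidermis. The liver genes had a median log2 change of 2.55, and all 16 were above 0, against 51.1% of all genes. The groups did not overlap for 15 of them, against 40.4% of all genes. Of the liver genes 1 of 16 was called with all libraries, Apoa2, at 1.38, 4.44 and 18.4 FPKM in WT and 56.2, 62.8 and 59.1 FPKM in sgNAT10 tumours (log2 change 2.87, adjusted p = 0.0398), and lost without WT library 2 or sgNAT10 library 1, 2 or 3 (adjusted p up to 0.126). Without WT library 1, 9 liver genes rose, and without WT library 3, 4. The part of this liver RNA in the rises of Hp, Hc, Mup10 and Aldh1a1 was not tested.

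Most endothelial genes of the list rose. Of 20 genes of blood endothelium, 14 rose and 1 fell, with a median log2 change of 0.72. The summed level was 117, 124 and 146 FPKM in the WT and 199, 180.0 and 174 FPKM in the sgNAT10 tumours, without overlap. Pecam1 (ENSMUSG00000020717, chr11:106654217-106750628), the junction protein CD31, was at 15.03, 13.2 and 16.5 FPKM in WT and 27.03, 24.2 and 24.2 FPKM in sgNAT10 tumours (log2 change 0.63 ± 0.13 (SE), adjusted p = 0.0201). Cdh5, VE-cadherin, was at 4.89, 6.90 and 8.81 FPKM in WT and 17.2, 13.4 and 10.4 FPKM in sgNAT10 tumours (log2 change 0.91 ± 0.21 (SE), adjusted p = 0.0292). Emcn, a sialoglycoprotein of capillaries and veins, was at 6.74, 6.47 and 8.15 FPKM in WT and 13.5, 16.6 and 14.95 FPKM in sgNAT10 tumours (log2 change 0.93 ± 0.14 (SE), adjusted p = 0.0079). Each of the 3 genes was higher in each sgNAT10 tumour than in each WT tumour, and their means in cultured cells did not exceed 1 FPKM, except Cdh5 in sgNAT10 MCA205 cells (5.49 FPKM). Robo4 (log2 change 0.92, adjusted p = 0.0128) and Mmrn2 (log2 change 0.88, adjusted p = 0.0199) rose too. Apln, the apelin peptide made by sprouting tip cells and by many cells under low oxygen, fell from 25.5, 27.2 and 16.9 FPKM in WT to 8.97, 11.7 and 8.74 FPKM in sgNAT10 tumours (log2 change -1.37 ± 0.23 (SE), adjusted p = 0.0123), and cultured cells of both lines held it at means of 9.04 to 13.9 FPKM. Flt1, Esam, Eng, Vwf and Esm1 were not called. The count of 14 was also 14 without WT library 3, but 6 without WT library 1, 1 without WT library 2, and 1, 0 and 4 without sgNAT10 libraries 1, 2 and 3. Emcn had the smallest adjusted p of the rises and lost its call without sgNAT10 library 2 alone (adjusted p = 0.0523). Pecam1, Cdh5, Robo4, Mmrn2 and Apln were lost without single libraries among WT 1 and 2 and sgNAT10 1, 2 and 3 (adjusted p up to 0.101), each without 3 or 4 of these.

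Of 7 lymphatic endothelium genes 3 rose. The lymph node homing chemokine Ccl21a was at 0.598, 0.445 and 0.573 FPKM in WT and 3.15, 2.52 and 3.27 FPKM in sgNAT10 tumours (log2 change 2.34 ± 0.32 (SE), adjusted p = 0.00698), a call that held with any library left out. Mmrn1 (log2 change 3.05, adjusted p = 0.0195) and Reln (log2 change 2.00, adjusted p = 0.0356) were under 0.5 FPKM in each library and were lost without single libraries among WT 1 and 2 and sgNAT10 1, 2 and 3 (adjusted p up to 0.129). Pdpn, which tumour cells also express, was at 55.7, 50.8 and 43.6 FPKM in WT and 60.7, 57.2 and 69.4 FPKM in sgNAT10 tumours (log2 change 0.19, adjusted p = 0.466). Of 20 angiogenic factor genes 4 rose and 2 fell. Vegfc, a growth factor of lymphatic vessels, was at 3.80, 5.62 and 5.70 FPKM in WT and 11.5, 10.9 and 8.88 FPKM in sgNAT10 tumours (log2 change 0.95 ± 0.16 (SE), adjusted p = 0.0109). Angpt2 (log2 change 0.84, adjusted p = 0.0206), Notch4 (log2 change 0.88, adjusted p = 0.0198) and Thbs2 (log2 change 0.96, adjusted p = 0.0105) rose. The Vegfc, Angpt2 and Notch4 calls were lost without single libraries among WT 2 and sgNAT10 1, 2 and 3 (adjusted p up to 0.079), and that of Thbs2 held. The counts that rose were 2, 1 and 4 without WT library 1, 2 or 3 and 1, 2 and 1 without sgNAT10 library 1, 2 or 3 for lymphatic genes and 4, 2 and 8, and 1, 1 and 2 for angiogenic factors in the same order.

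Mural cell genes moved in both directions. Of 15 tested, 3 rose and 3 fell. Acta2, smooth muscle actin, fell from 58.6, 59.97 and 25.1 FPKM in WT to 7.91, 10.5 and 9.18 FPKM in sgNAT10 tumours (log2 change -2.52 ± 0.37 (SE), adjusted p = 0.00794). Tagln, another contractile gene, fell from 12.8, 7.48 and 4.22 FPKM in WT to 1.600, 2.60 and 3.24 FPKM in sgNAT10 tumours (log2 change -1.90 ± 0.50 (SE), adjusted p = 0.04). In both genes WT library 3 was the lowest WT value and still lay above each sgNAT10 value. Des, the muscle filament desmin, rose from 3.43, 4.53 and 7.24 FPKM in WT to 30.04, 20.6 and 17.2 FPKM in sgNAT10 tumours (log2 change 2.10 ± 0.28 (SE), adjusted p = 0.00646), and the myosin kinase Mylk from 1.22, 1.53 and 2.07 FPKM in WT to 6.75, 6.81 and 4.36 FPKM in sgNAT10 tumours (log2 change 1.76 ± 0.19 (SE), adjusted p = 0.00407). Rgs5, a marker of pericytes, was at 5.64, 6.55 and 8.05 FPKM in WT and 10.4, 12.4 and 10.02 FPKM in sgNAT10 tumours (log2 change 0.59 ± 0.13 (SE), adjusted p = 0.0225). The calls of Acta2, Des and Mylk held with any library left out, and those of Rgs5 and Tagln were lost without single libraries among WT 1 and 2 and sgNAT10 1, 2 and 3 (adjusted p up to 0.131). Des and Mylk are expressed in skeletal muscle too, whose genes rose as described next.

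**Figure D3:**
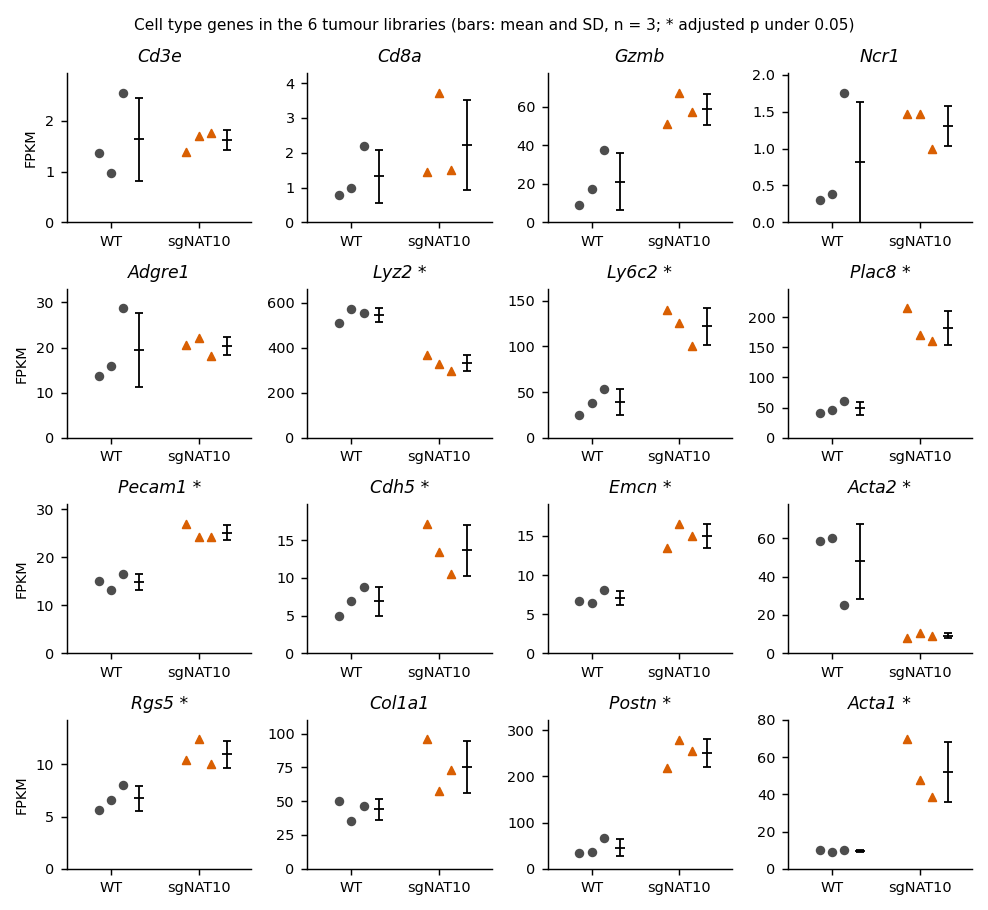
FPKM of 16 immune, vascular, stromal and muscle genes in each of the 3 WT (circles) and 3 sgNAT10 (triangles) tumours, with the mean and SD of each group beside the points; a star marks an adjusted p under 0.05. The groups overlap for Cd3e, Cd8a and Ncr1, and do not overlap for Gzmb, which was not called. Ly6c2, Plac8, Emcn, Postn and Acta1 lie higher and Lyz2 and Acta2 lower in each sgNAT10 tumour.

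Skeletal muscle genes rose in part. Of 18 tested, 10 rose and 1 fell, with a median log2 change of 1.77. The summed level was 91.2, 91.8 and 83.998 FPKM in the WT and 232, 181 and 167 FPKM in the sgNAT10 tumours. Acta1, skeletal actin, was at 10.1, 8.82 and 9.97 FPKM in WT and 69.6, 47.4 and 38.4 FPKM in sgNAT10 tumours (log2 change 2.30 ± 0.23 (SE), adjusted p = 0.00344). The fast myosin Myh1 was at 0.350, 0.681 and 0.914 FPKM in WT and 3.65, 4.46 and 3.57 FPKM in sgNAT10 tumours (log2 change 2.50 ± 0.28 (SE), adjusted p = 0.00437). Tnnt3 (log2 change 1.92, adjusted p = 0.00697), Mylpf (log2 change 1.62, adjusted p = 0.00754) and Atp2a1 (log2 change 2.02, adjusted p = 0.00781) rose too, and these 5 calls held with any library left out, while the count of 10 was 14, 7 and 11 without WT library 1, 2 or 3 and 6, 6 and 9 without sgNAT10 library 1, 2 or 3. Each sgNAT10 tumour lay above each WT tumour in all 5. The glycolytic enzyme Eno3, named after its value was seen, was the member that fell (log2 change -0.72, adjusted p = 0.0213). Cultured WT MCA205 cells held a summed level of 45.4, 195 and 44.5 FPKM, 1 library of which reached above the WT tumours.

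Fibroblast genes did not move as one list. Of 20 tested, 3 rose and 1 fell, with a median log2 change of 0.29. Postn (ENSMUSG00000027750, chr3:54361109-54391037), the matrix protein periostin, rose from 33.4, 37.1 and 66.9 FPKM in WT to 218, 278 and 254 FPKM in sgNAT10 tumours (log2 change 2.35 ± 0.24 (SE), adjusted p = 0.00365), and held with any library left out. It was under 1 FPKM on average in cultured TC1 cells of either genotype and at 0.953 FPKM in WT MCA205 cells. Its level in sgNAT10 MCA205 cells is not given here. The summed fibroblast list was at 314, 340 and 324 FPKM in WT and 530, 529 and 532 FPKM in sgNAT10 MCA205 cells. In TC1 cells that list was at 469, 497 and 443 FPKM in WT and 241, 313 and 325 FPKM in sgNAT10. The source of the Postn rise was not tested. The proteoglycan Lum (log2 change 1.81, adjusted p = 0.0122) and Dpt (log2 change 1.07, adjusted p = 0.0321) rose at lower levels, and Fbln1 fell (log2 change -0.78, adjusted p = 0.038). Those 3 calls were lost without single libraries among WT 1, 2 and 3 and sgNAT10 1, 2 and 3 (adjusted p up to 0.14), and the count of 3 that rose was 6, 1 and 4 without WT library 1, 2 or 3 and 1, 2 and 2 without sgNAT10 library 1, 2 or 3. The defining genes were not called. Col1a1 was at 50.4, 35.04 and 46.1 FPKM in WT and 95.9, 57.6 and 73.3 FPKM in sgNAT10 tumours (log2 change 0.66, adjusted p = 0.109), and Pdgfra was at 8.57, 10.4 and 23.4 FPKM in WT and 27.99, 16.2 and 14.1 FPKM in sgNAT10 tumours (log2 change 0.42, adjusted p = 0.467). The groups overlapped for Pdgfra, whose WT library 3 lay above 2 of the 3 sgNAT10 values.

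Matrix genes were called in both directions. Of 20 collagen genes 3 rose and 4 fell. Col15a1 (5.12, 5.31 and 7.24 FPKM in WT and 14.2, 11.97 and 10.5 FPKM in sgNAT10 tumours, log2 change 0.94, adjusted p = 0.00968) and Col18a1 (log2 change 1.18, adjusted p = 0.0126), both of basement membranes, rose. Col27a1 fell from 6.22, 6.79 and 10.5 FPKM in WT to 2.76, 3.70 and 3.54 FPKM in sgNAT10 tumours (log2 change -1.35 ± 0.18 (SE), adjusted p = 0.00639), and Col5a2 (log2 change -1.37, adjusted p = 0.0163) and Col5a3 (log2 change -0.67, adjusted p = 0.014) fell. The Col27a1 call held with any library left out, and the other 4 were lost without single libraries among WT 2 and sgNAT10 1, 2 and 3 (adjusted p up to 0.0824). The count of 3 that rose was 3, 1 and 6 without WT library 1, 2 or 3 and 1, 0 and 2 without sgNAT10 library 1, 2 or 3. Of 22 matrix proteases and inhibitors 5 rose and 1 fell. The metalloproteinase inhibitor Timp3 was at 6.19, 8.38 and 6.45 FPKM in WT and 22.9, 12.8 and 14.2 FPKM in sgNAT10 tumours (log2 change 1.14 ± 0.24 (SE), adjusted p = 0.0206), and Mmp19 (log2 change 0.79, adjusted p = 0.0267), Adamts1 (log2 change 0.85, adjusted p = 0.0288) and the bone-resorbing protease Ctsk (log2 change 0.86, adjusted p = 0.0468) rose, while Plau, urokinase, fell (log2 change -0.83, adjusted p = 0.0359). Each of these calls was lost without 2 or more single libraries among WT 2 and 3 and sgNAT10 1, 2 and 3 (adjusted p up to 0.145). The count of 5 was 4, 0 and 4 without WT library 1, 2 or 3 and 1, 1 and 0 without sgNAT10 library 1, 2 or 3.

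Adipocyte genes lay higher in sum in the sgNAT10 tumours, and skin genes differed between single libraries. The summed adipocyte level was 40.6, 23.7 and 26.7 FPKM in WT and 71.4, 57.9 and 82.4 FPKM in sgNAT10 tumours, without overlap. The median log2 change of the adipocyte genes was 1.32. Of 7 adipocyte genes 2 rose, Lpl (0.588, 0.524 and 0.708 FPKM in WT and 1.72, 1.44 and 1.78 FPKM in sgNAT10 tumours, log2 change 1.32, adjusted p = 0.0123) and Cfd, adipsin (0.335, 0.942 and 0.523 FPKM in WT and 8.62, 1.52 and 11.5 FPKM in sgNAT10 tumours, log2 change 3.53, adjusted p = 0.0236). The hormone gene Adipoq was at 0.300, 0.0769 and 0.0686 FPKM in WT and 0.556, 0.435 and 1.38 FPKM in sgNAT10 tumours (log2 change 2.16, adjusted p = 0.0938). Lpl was lost without sgNAT10 library 1 or 3 (adjusted p up to 0.0566) and Cfd without WT library 2 or sgNAT10 library 1 or 3 (adjusted p up to 0.0801). None of 11 epidermis and hair follicle genes was called, and sgNAT10 library 3 was the highest. Krt14, the basal keratin, was at 1.41, 5.77 and 3.41 FPKM in WT and 13.3, 0.504 and 126 FPKM in sgNAT10 tumours (adjusted p = 0.138). Of 7 peripheral nerve genes 1 fell, Pmp22 (log2 change -0.77, adjusted p = 0.0244), lost without WT library 2 or sgNAT10 library 2 or 3 (adjusted p up to 0.105), and of 14 epithelial and lung identity genes none was called, with 7 lower without WT library 1.

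Cell cycle genes fell in the sgNAT10 tumours. All 25 G2/M genes tested fell, with a median log2 change of -1.06, and 24 of 25 G1/S and replication genes fell, with a median of -1.08, against 9.72% of all genes. The summed G2/M level was 1269.8, 1401 and 1112 FPKM in the WT and 601, 612 and 555 FPKM in the sgNAT10 tumours, and that of G1/S was 1105, 1164 and 1019.7 FPKM in the WT and 538, 585 and 557 FPKM in the sgNAT10 tumours. In both lists the sgNAT10 tumours formed a tight group below the WT tumours. Plk1 (ENSMUSG00000030867, chr7:122159439-122169873), the polo-like kinase of mitosis, was at 41.4, 48.03 and 43.1 FPKM in WT and 21.9, 18.5 and 17.1 FPKM in sgNAT10 tumours (log2 change -1.32 ± 0.12 (SE), adjusted p = 0.00289). Aurka, the kinase of spindle poles, was at 54.5, 63.6 and 51.4 FPKM in WT and 28.3, 25.2 and 23.5 FPKM in sgNAT10 tumours (log2 change -1.25 ± 0.13 (SE), adjusted p = 0.00385). Cdc20 (log2 change -1.25, adjusted p = 0.00349), the checkpoint kinase Ttk (log2 change -1.12, adjusted p = 0.00383) and cyclin A2 gene Ccna2 (log2 change -1.11, adjusted p = 0.005) fell by similar amounts. Of the replication genes, Mcm4, a subunit of the replicative helicase, was at 45.3, 52.9 and 47.4 FPKM in WT and 20.5, 21.6 and 21.99 FPKM in sgNAT10 tumours (log2 change -1.30 ± 0.11 (SE), adjusted p = 0.00226). Cdc6, which loads that helicase, was at 7.80, 10.2 and 10.2 FPKM in WT and 3.72, 3.95 and 4.01 FPKM in sgNAT10 tumours (log2 change -1.35 ± 0.11 (SE), adjusted p = 0.00202), and Mcm5 (log2 change -1.28, adjusted p = 0.00227) and the chromatin assembly factor Chaf1a (log2 change -1.45, adjusted p = 0.00202) fell likewise. These 9 calls held with any library left out. The list counts ran from 20 to 25 for G2/M and from 16 to 25 for G1/S with 1 library left out, the lowest in both without sgNAT10 library 2. Gins1 was the G1/S gene not called.

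**Figure D4:**
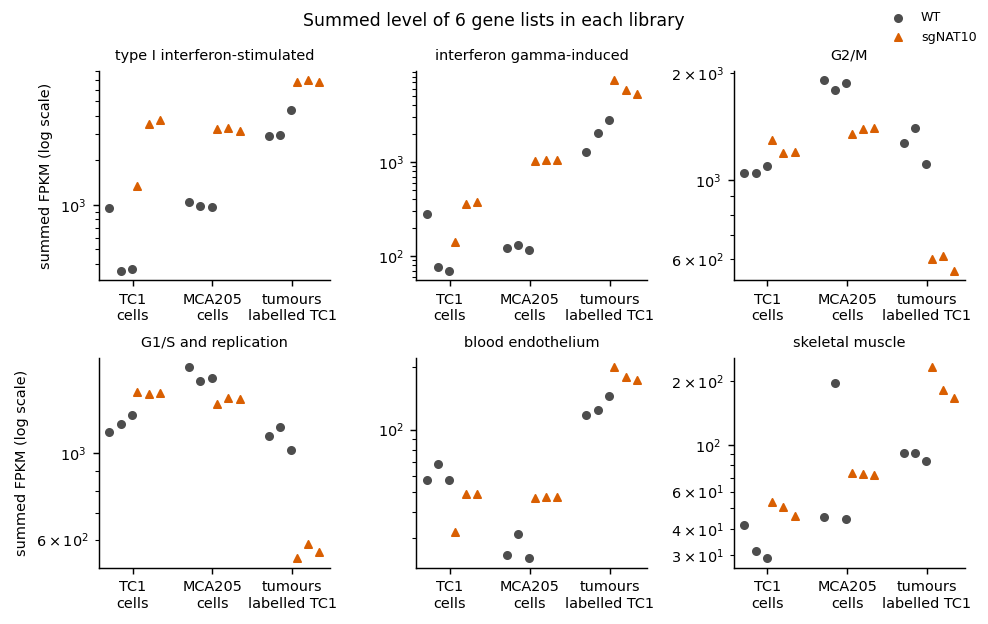
Summed FPKM on a log axis of 6 gene lists in each library of TC1 cells, MCA205 cells and tumours; circles are WT and triangles sgNAT10. In the tumours the interferon, endothelium and muscle lists lie higher in each sgNAT10 library than in each WT library. Both cell cycle lists lie lower. The cell cycle lists lie lower in sgNAT10 MCA205 cells too, whereas G2/M does not lie lower in sgNAT10 TC1 cells.

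Among genes of DNA methylation, 5 of 17 fell and 1 rose. Uhrf1, which brings DNMT1 to replicated DNA and is counted in the G1/S list too, was at 51.6, 60.5 and 59.6 FPKM in WT and 23.4, 23.7 and 20.8 FPKM in sgNAT10 tumours (log2 change -1.48 ± 0.10 (SE), adjusted p = 0.00195). The remodeller Hells was at 25.4, 32.7 and 27.7 FPKM in WT and 12.03, 15.5 and 15.99 FPKM in sgNAT10 tumours (log2 change -1.11 ± 0.15 (SE), adjusted p = 0.00645). Both calls held with any library left out. Tdg (log2 change -0.77, adjusted p = 0.0103) and Mbd3 (log2 change -0.56, adjusted p = 0.0271) fell, and were lost without single libraries among WT 2 and sgNAT10 1, 2 and 3 (adjusted p up to 0.118). The count of 5 was 5, 3 and 4 without WT library 1, 2 or 3 and 3, 2 and 3 without sgNAT10 library 1, 2 or 3. Of the title genes, Dnmt1 (adjusted p = 0.0489) and Cdk2 (adjusted p = 0.0451) were just under the threshold and Myc was not called (adjusted p = 0.539). Dnmt1 was lost without WT library 2 or 3 or sgNAT10 library 1, 2 or 3 (adjusted p up to 0.149) and Cdk2 without WT library 1 or 2 or sgNAT10 library 1, 2 or 3 (adjusted p up to 0.135).

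Some genes of ribosome biogenesis, in which NAT10 takes part, fell slightly. Of 21 tested, 7 fell and none rose, with a median log2 change of -0.51. Rrs1 was at 56.5, 50.1 and 57.5 FPKM in WT and 31.02, 32.9 and 36.8 FPKM in sgNAT10 tumours (log2 change -0.82 ± 0.14 (SE), adjusted p = 0.011), and Pes1 was at 52.4, 53.1 and 45.7 FPKM in WT and 35.6, 35.4 and 35.5 FPKM in sgNAT10 tumours (log2 change -0.63 ± 0.13 (SE), adjusted p = 0.0228). Nolc1 (log2 change -0.55, adjusted p = 0.0225), Polr1b (log2 change -0.55, adjusted p = 0.0237) and Bop1 (log2 change -0.37, adjusted p = 0.0299) fell as well. The count of 7 was 8, 1 and 14 without WT library 1, 2 or 3 and 0, 0 and 1 without sgNAT10 library 1, 2 or 3, and it was 3 with scaling by library size alone. The 5 calls named here were lost without single libraries among WT 2 and sgNAT10 1, 2 and 3 (adjusted p up to 0.149).

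Of 18 stress response genes 6 fell and 3 rose. Hspa1b, an inducible HSP70, was at 65.9, 64.6 and 48.5 FPKM in WT and 13.8, 15.8 and 13.7 FPKM in sgNAT10 tumours (log2 change -2.18 ± 0.19 (SE), adjusted p = 0.00227). Its near-identical neighbour Hspa1a was at 14.1, 14.4 and 9.75 FPKM in WT and 3.37, 4.28 and 3.68 FPKM in sgNAT10 tumours (log2 change -1.88 ± 0.22 (SE), adjusted p = 0.0046). Both calls held with any library left out, and the 2 genes may share reads. Hsph1 (log2 change -0.83, adjusted p = 0.015), Dnajb1 (log2 change -0.91, adjusted p = 0.0306) and the serine synthesis enzyme Phgdh (log2 change -0.87, adjusted p = 0.0277) fell, and were lost without single libraries among WT 2 and sgNAT10 1, 2 and 3 (adjusted p up to 0.116). The 3 that rose, Hspa5, Dnajb9 and Herpud1, named after their values were seen, serve protein folding and disposal in the endoplasmic reticulum, with log2 changes of 0.76, 1.05 and 0.47. The count of 3 was 0, 0 and 3 without WT library 1, 2 or 3 and 0, 0 and 0 without sgNAT10 library 1, 2 or 3, and that of 6 5, 3 and 9, and 2, 2 and 2 in the same order.

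Of 21 hypoxia and glycolysis genes 3 fell and none rose, with a median log2 change of -0.65. Slc16a3, a lactate exporter, was at 54.8, 68.1 and 35.1 FPKM in WT and 29.1, 23.4 and 19.3 FPKM in sgNAT10 tumours (log2 change -1.23 ± 0.26 (SE), adjusted p = 0.0212), and Ldha, lactate dehydrogenase, was at 1159, 1039.8 and 809.5 FPKM in WT and 707, 569 and 519 FPKM in sgNAT10 tumours (log2 change -0.89 ± 0.24 (SE), adjusted p = 0.0429). The oxygen sensor Egln3 fell (log2 change -1.33, adjusted p = 0.0187). For these genes WT library 3 lay closest to the sgNAT10 tumours, and without it 14 of the 21 fell, against 2 without WT library 1 and 0 without any 1 of the others (Slc16a3, Ldha and Egln3 adjusted p up to 0.161). Ndrg1 was at 134, 124 and 44.97 FPKM in WT and 43.3, 41.5 and 41.5 FPKM in sgNAT10 tumours (log2 change -1.41, adjusted p = 0.0537), with WT library 3 near the sgNAT10 values. Of 21 p53 targets 2 rose and 2 fell, near the shares over all genes (7.65% and 9.72%), and the median of 0.05 changed sign under 2 settings. Eda2r (1.64, 2.74 and 1.66 FPKM in WT and 6.02, 6.35 and 6.23 FPKM in sgNAT10 tumours, log2 change 1.39, adjusted p = 0.0089) and Trp53inp1 (log2 change 1.36, adjusted p = 0.0117) rose, and Tnfrsf10b (log2 change -0.66, adjusted p = 0.0169) and Phlda3 (log2 change -0.49, adjusted p = 0.0365) fell. These were lost without single libraries among WT 2 and sgNAT10 1, 2 and 3 (adjusted p up to 0.132), and Eda2r without sgNAT10 library 2 alone.

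The largest changes were nearly on or off. Among called genes of at least 5 FPKM in the higher group, Bmp5 (ENSMUSG00000032179, chr9:75775364-75900310), a bone morphogenetic protein, showed the largest rise, from 0, 0.0873 and 0.107 FPKM in WT to 9.49, 9.89 and 7.58 FPKM in sgNAT10 tumours (log2 change 7.08 ± 0.79 (SE), adjusted p = 0.00418). Nxf3, a relative of the mRNA export factor Nxf1 on the X chromosome, was at 0, 0.104 and 0.116 FPKM in WT and 6.70, 9.70 and 8.42 FPKM in sgNAT10 tumours (log2 change 6.66 ± 0.83 (SE), adjusted p = 0.00561). Ostn, the secreted peptide osteocrin, was at 0.195, 0 and 0.241 FPKM in WT and 4.66, 8.42 and 11.99 FPKM in sgNAT10 tumours (log2 change 5.67 ± 0.95 (SE), adjusted p = 0.0117). The 3 genes were present in each sgNAT10 tumour and at or near 0 in each WT tumour, and their means were under 1 FPKM in both cultured lines of either genotype. Bmp5 and Nxf3 held with any library left out, and Ostn was lost without sgNAT10 library 2 or 3 (adjusted p up to 0.0531). H2-M10.1, a nonclassical class I gene with close relatives, rose from 0.0784, 0.179 and 0.374 FPKM in WT to 11.4, 17.9 and 24.9 FPKM in sgNAT10 tumours (log2 change 6.37 ± 0.50 (SE), adjusted p = 0.00202). Also among the largest rises were Dach2 (log2 change 3.30, adjusted p = 0.00202), the protease inhibitor Csta2 (log2 change 3.73, adjusted p = 0.00443), the carbonic anhydrase of fat and muscle Car3 (log2 change 3.32, adjusted p = 0.00195), the retinal dehydrogenase Aldh1a1 (log2 change 4.90, adjusted p = 0.00742) and the liver gene Mup10 (log2 change 3.65, adjusted p = 0.0475). Of those 5, all but Mup10 held with any library left out, and Mup10 was lost without WT library 2 or sgNAT10 library 1, 2 or 3 (adjusted p up to 0.143).

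The largest falls reached from genes of cell adhesion to signalling. Prkar1b (ENSMUSG00000025855, chr5:139017306-139150001), a regulatory subunit of protein kinase A, fell from 5.42, 4.99 and 6.41 FPKM in WT to 0.488, 0.463 and 0.404 FPKM in sgNAT10 tumours (log2 change -3.86 ± 0.21 (SE), adjusted p = 0.00116). Lama5, a laminin chain of basement membranes, fell from 4.15, 5.95 and 5.85 FPKM in WT to 0.704, 0.627 and 0.712 FPKM in sgNAT10 tumours (log2 change -3.15 ± 0.14 (SE), adjusted p = 0.000471). Tspan6, a tetraspanin, fell from 18.6, 18.04 and 21.6 FPKM in WT to 2.70, 3.45 and 2.79 FPKM in sgNAT10 tumours (log2 change -2.82 ± 0.15 (SE), adjusted p = 0.00109). In the 3 genes the lowest WT value was several times the highest sgNAT10 value. Ddah2, which degrades methylated arginine, fell from 41.02, 30.7 and 34.5 FPKM in WT to 8.12, 6.96 and 5.62 FPKM in sgNAT10 tumours (log2 change -2.54 ± 0.22 (SE), adjusted p = 0.00227), and the retinoic acid carrier Crabp2 from 24.4, 13.9 and 22.4 FPKM in WT to 2.92, 3.20 and 3.89 FPKM in sgNAT10 tumours (log2 change -2.73 ± 0.29 (SE), adjusted p = 0.00385). The kinase Nme4 (log2 change -3.46, adjusted p = 0.00564), the glycosyltransferase Galnt18 (log2 change -3.44, adjusted p = 0.00195) and the arginine transporter Slc7a3 (log2 change -2.59, adjusted p = 0.00342) fell as well, and these 8 calls held with any library left out. The granzyme Gzmg (log2 change -2.96, adjusted p = 0.0284) and the protease Prss22 (log2 change -2.90, adjusted p = 0.0134) also fell, but lost their calls without sgNAT10 library 1, 2 or 3 (adjusted p up to 0.0974). Xist (ENSMUSG00000086503, chrX:103460366-103483254), the RNA that silences 1 X chromosome in female cells, fell from 17.9, 23.1 and 24.98 FPKM in WT to 4.27, 5.84 and 5.26 FPKM in sgNAT10 tumours (log2 change -2.18 ± 0.15 (SE), adjusted p = 0.00195), a call that held. It had means of 0.774 FPKM in WT and 0.00866 FPKM in sgNAT10 TC1 cells, and of 17.9 and 41.3 FPKM in MCA205 cells.

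Genes that sgNAT10 changed in culture were then followed in the tumours. In the cultured cells 15.9% of 18823 genes rose and 22% fell in TC1 cells (37.9% in all), and 21.2% of 18101 genes rose and 19.4% fell in MCA205 cells (40.6% in all). Of 70 genes that rose at least 4-fold in TC1 cells, with 10 FPKM or more in the higher group, 25 rose and 6 fell in the tumours, with a median log2 change of 0.43. Of 90 that fell at least 4-fold in TC1 cells, 9 (10%) rose and 12 (13.3%) fell in the tumours, near the 7.65% and 9.72% of all genes. Their median of -0.08 changed sign under 4 settings. For MCA205 cells, 59 of 105 such genes that rose also rose in the tumours and 5 fell (median 0.86), and 10 of 23 that fell also fell and 1 rose (median -0.74). Shared risers included Apol9a (69.1, 71.1 and 76.5 FPKM in WT and 133, 120.2 and 119 FPKM in sgNAT10 tumours, log2 change 0.74, adjusted p = 0.00752) and Ifi207 (9.46, 12.9 and 18.2 FPKM in WT and 38.9, 37.7 and 36.7 FPKM in sgNAT10 tumours, log2 change 1.40, adjusted p = 0.00545), both induced by interferon. The count of 25 was 23, 9 and 29 without WT library 1, 2 or 3 and 10, 5 and 13 without sgNAT10 library 1, 2 or 3, and that of 59 was 57, 26 and 69, and 28, 16 and 33 in the same order. The 12 genes that fell for TC1 cells were 11, 8 and 25, and 7, 6 and 6, and the 10 for MCA205 cells 7, 6 and 11, and 5, 3 and 3.

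Single genes were compared across the tumours and both cultured pairs. Hoxb9, a homeobox gene, was at 2.93, 3.79 and 2.38 FPKM in WT and 0.190, 0.183 and 0.111 FPKM in sgNAT10 tumours (log2 change -4.32 ± 0.34 (SE), adjusted p = 0.00202). It fell in TC1 cells as well, from a mean of 63.5 to 0.682 FPKM, and had means of 3.90 FPKM in WT and 8.17 FPKM in sgNAT10 MCA205 cells. Arhgef28, a guanine nucleotide exchange factor, was at 3.19, 5.07 and 3.11 FPKM in WT and 0.353, 0.239 and 0.262 FPKM in sgNAT10 tumours (log2 change -3.78 ± 0.27 (SE), adjusted p = 0.00195), and fell in culture from 10.3 to 3.03 FPKM in TC1 cells and from 12.1 to 0.178 FPKM in MCA205 cells. Msln, the surface protein mesothelin, was at 80.3, 93.3 and 66.5 FPKM in WT and 25.8, 32.5 and 27.7 FPKM in sgNAT10 tumours (log2 change -1.57 ± 0.17 (SE), adjusted p = 0.00385), with means of 213 and 76.2 FPKM in WT and sgNAT10 MCA205 cells. These 3 calls held with any library left out. By contrast, the placental hormone gene Prl2c2 had a mean of 1316 FPKM in sgNAT10 MCA205 cells and 24.2 FPKM in WT, but was at 34.6, 25.9 and 11.7 FPKM in WT and 10.4, 12.9 and 12.7 FPKM in sgNAT10 tumours (adjusted p = 0.0909).

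Genes near 0 in cultured TC1 cells but present in the tumours rose more often than they fell. Of 117 tested genes under 0.1 FPKM in each TC1 cell library and at a mean of 1 FPKM or more in the tumours, 26 rose and 1 fell, with a median log2 change of 0.82. Of 51 that were also under 0.1 FPKM in each MCA205 cell library, 7 rose and 1 fell, with a median of 0.74. The mean was taken over both tumour groups, so a gene could enter through the group in which it was high. Apol11b, under 1 FPKM in each WT tumour, is an example. The balance of rises and falls is therefore not independent of how these genes were chosen. Slamf7, a receptor of NK cells, plasma cells and macrophages, was at 3.86, 4.41 and 5.08 FPKM in WT and 10.7, 10.3 and 10.9 FPKM in sgNAT10 tumours (log2 change 1.28 ± 0.14 (SE), adjusted p = 0.00392), and Apol11b was at 0.253, 0.328 and 0.816 FPKM in WT and 3.75, 4.73 and 3.04 FPKM in sgNAT10 tumours (log2 change 2.77 ± 0.42 (SE), adjusted p = 0.00887). Both calls held with any library left out. Mefv, the pyrin gene of granulocytes and monocytes, rose too (log2 change 0.98, adjusted p = 0.0254), as did Pde7b (log2 change 1.07, adjusted p = 0.0158), and Nxpe5 was the one that fell (log2 change -0.98, adjusted p = 0.0399). These 3 were lost without single libraries among WT 1, 2 and 3 and sgNAT10 1, 2 and 3 (adjusted p up to 0.15). Without WT library 3 the counts were 57 of 117 and 26 of 51, and they were 9 to 11 and 3 without WT library 2 or any 1 sgNAT10 library.

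The difference between the tumour effect and the effect in culture was tested as an interaction on the counts of the tables in 1 fit. All comparisons of tumours with cells rest on the same 6 tumour libraries. Against TC1 cells, the tumour effect was higher for 13.1% and lower for 13% of 21112 genes. Against MCA205 cells it was higher for 7.52% and lower for 13.7% of 20669 genes. Type I interferon genes rose in culture too, with 27 members called in TC1 cells (median 2.26) and 37 in MCA205 cells (median 2.30). Their rise was smaller in the tumours than in TC1 cells for 7 members and larger for none. It was smaller than in MCA205 cells for 25 of 39 and larger for 2. Ifit3 rose by 3.36 on the log2 scale in TC1 cells and 4.52 in MCA205 cells, from WT means of 6.45 and 6.29 FPKM, against 1.51 in the tumours from a far higher WT level. The difference was -3.03 against MCA205 cells (adjusted p = 2.58e-05).

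The interferon gamma list rose in MCA205 cells (20 called, median 2.57) but with 6 called and a median of -0.12 in TC1 cells, and the tumour effect was higher than that of TC1 cells for 9 members and lower for 1. Against MCA205 cells it was higher for 0 and lower for 9 of 25. G2/M genes fell in MCA205 cells too, with 24 of 25 called lower and a median of -0.47. Of 25 G1/S genes, 11 were called lower and 3 higher there, with a median of -0.14. In TC1 cells 10 G2/M and 12 G1/S genes were called higher, and 1 and 4 lower. For most cell cycle genes the change in the tumours differed from that in either line. The tumour effect was lower than in TC1 cells for all 25 G2/M genes and 22 of 25 G1/S genes, and lower than in MCA205 cells for 16 and 23. Plk1 changed by 0.53 in TC1 cells and -0.45 in MCA205 cells on the log2 scale, against -1.32 in the tumours (difference -1.86, adjusted p = 2.36e-05, and -0.88, adjusted p = 0.000693). Of 20 fibroblast and 20 collagen genes, 11 and 13 had a higher effect in the tumours than in TC1 cells and 1 of each a lower one, and of 21 p53 targets 2 had a higher and 14 a lower one. Bgn, the matrix proteoglycan biglycan, is an example, at 669, 825 and 1126 FPKM in WT and 2182, 2102 and 1701 FPKM in sgNAT10 tumours (log2 change 1.09 ± 0.20 (SE), adjusted p = 0.0145) against means of 296 FPKM in WT and 6.01 FPKM in sgNAT10 TC1 cells. The tumour call of Bgn was lost without WT library 2 or sgNAT10 library 1 or 2 (adjusted p up to 0.0756).

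Transcript rows were examined for shifts against their gene. Of 35282 transcripts tested in 9550 genes, 136 in 124 genes (0.385%) changed their share of the gene, and 44 of them (0.125%) moved in the opposite direction to the gene's summed counts. Of these 44, 16 were at 0 in each WT tumour and 10 at 0 in each sgNAT10 tumour, and the gene itself was called for 12. The rows named below come from the 20 (0.0567%) that held at least 10% of their gene on average over the 6 tumours. On simulated counts this test missed nearly all of the smallest changes made and many of the larger ones, and unchanged transcripts made up a large part of its calls, far above the nominal rate. The counts of 136 and 44 are therefore not firm, and limma's version of the test called 19 of the 44. The calls are given with their shares in all libraries. By annotated type, the 136 calls were 105 of 19593 protein coding rows tested and 17 of 2140 targets of nonsense-mediated decay. The rest were 6 of 9992 rows with a retained intron, 5 of 2733 processed transcripts and 3 of 385 lincRNAs. These are to be read beside the 0.385% of all transcripts tested. Retained-intron rows held 4.001, 4.17 and 4.43% of all counts in the WT and 4.73, 5.22 and 5.21% in the sgNAT10 tumours, and rows of nonsense-mediated decay 1.74, 1.81 and 1.75% in the WT and 2.00, 2.09 and 1.97% in the sgNAT10 tumours, without overlap in either. The rise was not particular to these types. Processed transcripts held 0.907, 0.921 and 0.914% in the WT and 0.932, 1.03 and 1.08% in the sgNAT10 tumours. LincRNAs held 0.477, 0.445 and 0.474% in the WT and 0.492, 0.551 and 0.598% in the sgNAT10 tumours. Protein coding rows held less in each sgNAT10 tumour, with 89.1, 89.4 and 89.4% in the WT and 88.9, 88.3 and 88.1% in the sgNAT10 tumours.

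The clearest switch was in Arhgap21, a GTPase-activating protein of the Golgi. ENSMUST00000114594 (chr2:20847919-20968881, minus strand, 26 exons) held 99.5, 98.6 and 98.7% of the gene's counts in the WT tumours and 0.103, 0 and 0.0798% in the sgNAT10 tumours (adjusted p = 6.25e-05). ENSMUST00000173194 (chr2:20847940-20967720, 24 exons) held 0, 0 and 0% in the WT and 98.6, 98.2 and 99.1% in the sgNAT10 tumours. Their sum hardly changed (gene log2 change 0.06), and their annotated first exons start at different sites. The shorter transcript has 18 exon bases that the longer lacks, and the longer has 449 that the shorter lacks. In culture the first of them held 6.83, 3.93 and 64.9% in WT and 16.2, 17.8 and 2.95% in sgNAT10 TC1 cells, and 3.999, 7.19 and 11.98% in WT and 1.97, 2.005 and 4.01% in sgNAT10 MCA205 cells. The WT tumours lay above each cultured library, and the sgNAT10 tumours below each. WT TC1 cells alone spread from 3.93 to 64.9%, and the Arhgap21 rows share 6902 exon bases, so the split of reads between them is uncertain.

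Smarcc2, a subunit of the SWI/SNF remodeller, showed a similar loss. ENSMUST00000099131 (chr10:128459308-128490122) held 32.5, 48.2 and 23.1% in the WT and 0, 0.362 and 0.617% in the sgNAT10 tumours, while the gene changed by 0.13 on the log2 scale (adjusted p of the share = 0.000125). It held 0.786 to 17.3% in TC1 cells and 10.4 to 19.8% in MCA205 cells. A transcript of the SUMO ligase gene Pias3, ENSMUST00000107076, held 39.4, 13.8 and 7.397% in the WT and 0, 0 and 0% in the sgNAT10 tumours (adjusted p = 0.000911). One of the cell cycle factor E2f3, ENSMUST00000222730, held 72.2, 9.94 and 46.2% in the WT and 0, 0 and 0% in the sgNAT10 tumours (adjusted p = 0.0135), and the WT values of both varied widely. The E2f3 transcript has no exon base that its partner ENSMUST00000221536 lacks, and the partner has 18 more, so that few reads can tell them apart.

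Rows that appeared in the sgNAT10 tumours were as variable. In Ppp5c, a protein phosphatase, ENSMUST00000142597 held 0, 0 and 0% in the WT and 33.9, 38.6 and 7.99% in the sgNAT10 tumours (adjusted p = 9.39e-06), and 1 of the 12 cultured libraries had it at 23.1% and the others at 0. In the condensin gene Ncaph2, ENSMUST00000145259, annotated as a target of nonsense-mediated decay, held 0, 0 and 0% in the WT and 13.2, 68.5 and 66.1% in the sgNAT10 tumours. Cultured libraries of 1 group held from 0 to 72.0% of the same row, for example 38.9, 71.97 and 0% in WT MCA205 cells, so the split between near-identical rows is uncertain. A processed transcript of the ribosomal protein gene Rpl22, ENSMUST00000142735, held 3.27, 2.13 and 3.35% in the WT and 8.55, 51.5 and 39.1% in the sgNAT10 tumours (adjusted p = 0.0100). Copa, a coat protein gene, had ENSMUST00000027833 at 0.611, 27.7 and 45.01% in the WT and 1.66, 4.15 and 1.46% in the sgNAT10 tumours, groups that overlapped. The calls of the Arhgap21, Smarcc2, Pias3, Ppp5c and Ncaph2 rows held with any library left out. With a term for the replicate number in diffSpliceDGE (the replicate block), the Arhgap21 row lost its call (adjusted p = 0.0574). So did those of E2f3 (adjusted p = 0.0575), Rpl22 (adjusted p = 0.596) and Copa. Limma's version of the test did not call the rows of Pias3 (adjusted p = 0.463), E2f3 (adjusted p = 0.247) and Copa (adjusted p = 0.247). E2f3 was lost without WT library 1 or any sgNAT10 library (adjusted p up to 0.0811), Rpl22 without WT library 2 or 3 or sgNAT10 library 2 or 3 (up to 0.241), and Copa without any library but WT library 1 (up to 0.364).

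**Figure D5:**
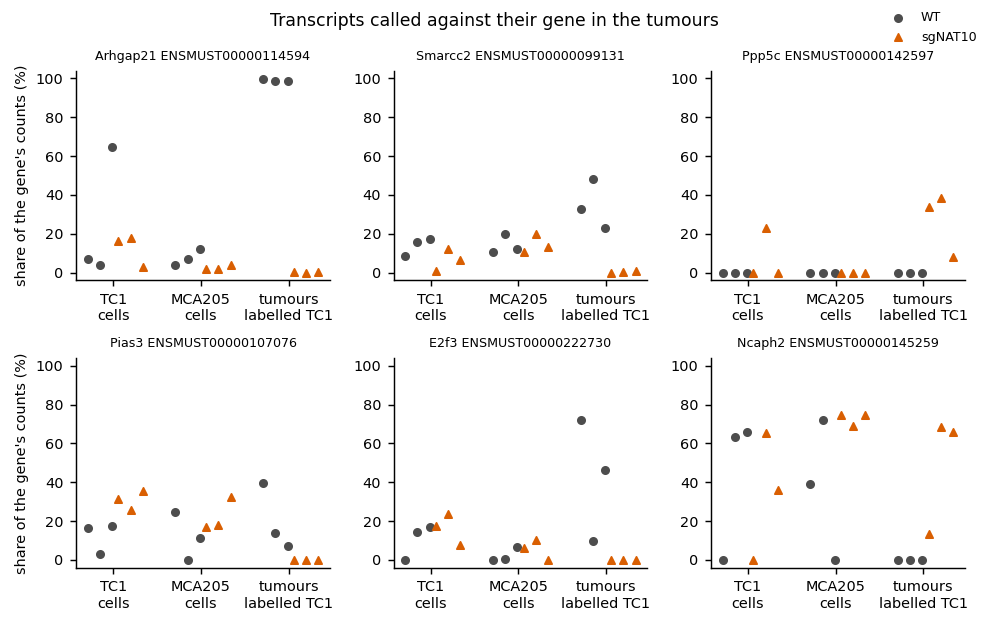
Share of the gene's counts (%) held by 6 transcripts called against their gene, in each library of TC1 cells, MCA205 cells and tumours; circles are WT and triangles sgNAT10. The tumour groups separate for the 6 rows, while the cultured libraries of 1 genotype spread widely for Ncaph2 and, in WT TC1 cells, for Arhgap21.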

How the data were processed

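RNA-seq of 6 tumours (3 WT and 3 sgNAT10) was analysed, with 12 cultured-cell libraries for comparison. The deposited tables hold expected counts (whole numbers) and FPKM per transcript, made by the authors. The program that made them and the read strand are not given in the sources used here, and per the submitters' processing notes the tools were Bowtie2, featureCounts, FastQC and Trim Galore and the build mm10, with no version or role. Such estimates can split reads between near-identical transcripts and genes.

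Transcript rows were summed per gene identifier, and coordinates are from GENCODE vM21 (GRCm38), which held 99.7% of the gene identifiers. Counts were tested with edgeR 4.0.16 (TMM scaling, filterByExpr, quasi-likelihood test, Benjamini-Hochberg adjustment over all genes tested), and transcript shares with diffSpliceDGE, in R 4.3.3. Alternatives were RLE factors, library size alone, no filter, a 1 CPM filter, DESeq2 1.42.0, limma 3.58.1 on log2(FPKM + 1) and log2(FPKM + 0.1), a 2-fold minimum, a replicate block and each library left out. The gene scripts were tested on simulated data.

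The text names, among called genes with separate groups and 5 FPKM or more in the higher group, the 10 largest rises and falls, up to 5 members of smallest p in each of 38 lists, defining markers, the title genes, 5 genes each way of the cell line, host and interaction classes, and 8 transcripts. Members and lists were chosen with earlier results of these data known, and 2 lists (liver and intestine) and the comparison with MCA205 cells were added after the data were seen. No 2 libraries of a group were copies, with at most 1.71% of genes at equal counts.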

Additional observations from a re-analysis of the deposited data

Results flagged for a closer look

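For 20 genes the change in the tumours differed from the change in a cultured line, as tested by the interaction in edgeR's quasi-likelihood fit, and the 2 changes had opposite signs or 1 of them was near 0. They are those with the smallest p in each direction and line, not the largest differences, out of many called genes (26.1% against TC1 cells and 21.2% against MCA205 cells). Values are log2 differences of the tumour effect minus the cell effect, and causes were not tested.

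Several matrix and guidance genes fell in cultured sgNAT10 TC1 cells but not in the tumours. The difference was 7.50 for Thbs2 (0.96 in tumours and -6.56 in TC1 cells, adjusted p = 1.04e-07) and 6.73 for Bgn (adjusted p = 1.04e-07). It was 6.75 for the axon guidance ligand gene Slit3 (adjusted p = 4.75e-07), 5.31 for Sema3a (adjusted p = 3.48e-07) and 5.98 for the zinc finger gene Zfp979 (adjusted p = 3.48e-07).

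In reverse, 5 genes rose in sgNAT10 TC1 cells and did not rise in the tumours. The difference was -5.37 for Dbf4, the activator of the replication kinase Cdc7, with -1.11 in tumours and 4.25 in cells (adjusted p = 1.04e-07). It was -5.01 for Ydjc (adjusted p = 1.2e-06), -4.32 for Sri (adjusted p = 1.04e-07), -4.25 for Tmem243 (adjusted p = 3.48e-07) and -3.80 for Crot (adjusted p = 1.14e-06). Sri had a mean of 635 FPKM in sgNAT10 TC1 cells and was at 38.5, 48.8 and 49.3 FPKM in the sgNAT10 tumours.

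Against MCA205 cells the difference was -4.78 for Prkar1b, which fell by 3.86 in the tumours (adjusted p = 9.82e-07), and -4.27 for the neurturin receptor gene Gfra2 (adjusted p = 3.25e-07). It was -3.45 for the phosphatase gene Ptpn22 (adjusted p = 4.64e-07), -3.39 for Xist (adjusted p = 9.82e-07) and -2.74 for Mex3b (adjusted p = 9.82e-07). It was 4.74 for the glutathione transferase gene Gsta4, with -0.11 in tumours and -4.86 in cells (adjusted p = 9.82e-07), 4.24 for Macc1 (adjusted p = 1.53e-06) and 2.09 for the magnesium channel gene Trpm6 (adjusted p = 1.52e-05). It was 1.82 for Gstm1 (adjusted p = 1.96e-05) and 1.50 for Trib2 (adjusted p = 1.48e-05).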

How the results depend on the processing

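Of the 278 genes eligible to be named, 192 were called; 76 kept the call under every setting, 114 lost it with at least 1 library left out, 90 under the replicate block and 0 under DESeq2, and 0 reversed. The genes that rose numbered 964 with a 2-fold minimum, 2406 with DESeq2 and 870 with no filter, and those that fell 548 with a 2-fold minimum, 1223 with library size alone, 1240 with limma on log2(FPKM + 0.1) and 2684 with DESeq2. Replicate numbers did not pair the tumours (same-numbered deviations correlated at -0.09, 0.07 and -0.16). With the replicate block 360 rose and 476 fell, and the counts were 14 for type I interferon, 6 for interferon gamma, 1 for blood endothelium, 0 for class I and 0 for ribosome biogenesis. With a 2-fold minimum, no filter and DESeq2, blood endothelium counts were 4, 6 and 16 and class I counts 2, 2 and 12. Ribosome biogenesis had 0 with a 2-fold minimum, 15 with DESeq2, 3 with library size alone and 4 with either limma setting.

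With 1 library left out, 234 to 2191 genes rose and 321 to 2421 fell (234 to 437 and 321 to 643 without WT library 2 or an sgNAT10 library). List counts were 5 to 37 for type I interferon (5 to 14 among those that moved), 5 to 23 for interferon gamma (5 to 7), 0 to 13 for class I, 0 to 14 for blood endothelium (0 to 6), 0 to 14 for ribosome biogenesis and 6 to 14 for muscle (6 where it moved). In TC1 cells 2516 to 3801 genes fell, at most 2651 where the count moved. Against MCA205 cells, 2461 genes had a higher tumour effect with DESeq2, 818 with the block 1001 to 1818 with 1 library left out (1001 and 1021 without MCA205 sgNAT10 library 1 or 2), and 1800 a lower one with the block. Transcript calls numbered 56 with a 1 CPM filter, 473 with limma, 51 with the block and 197 to 234 with 1 library left out (205 or more where it moved), and those against their gene 16, 189, 17 and 71 to 97, and 20 with a share of at least 10%. Causes were not tested. A smaller test set with the 1 CPM filter and fewer libraries when 1 is left out follow from their construction.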
